A study of Mus musculus with 9 samples.

Results

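Heat shock proteins and J-domain co-chaperones are the genes of the cell's protein-folding machinery whose mouse symbols begin with Hsp90, Dnaja, Dnajb or Dnajc, or with Hspa or Hspb and a digit, together with Hspd1, Hspe1, Hsph1 and Chordc1. Of 77 rows that met this rule, 72 had a count above 0 in some library, out of 19250 features above 0 in all. By textbook location, 38 of the 72 act in the cytosol and nucleus, 14 in the endoplasmic reticulum (ER), 9 in mitochondria and 4 on vesicles and endosomes, and 7 were not assigned. The members at 0 in every library were Dnajc5g and the pseudogenes Dnaja1-ps, Dnajc19-ps, Dnajb6-ps and Hspa9-ps1. A further 5 members, Dnajb7, Dnajb8, Hspb9, Dnajc22 and Dnajc5b, had too few counts to be tested, which left 67.

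RNA was sequenced from the medial prefrontal cortex of DBA2/J mice, an inbred strain, in 3 groups of 3 libraries. SA:ANH-KDM5Ci came from mice put through 5 days of social defeat stress (smSDS), assigned by the submitters to a subtype called SA:ANH, and given an inhibitor of KDM5C, a histone H3K4 demethylase encoded on the X chromosome. SA:ANH-vehicle came from stressed mice of the same subtype given vehicle, which the treatment labels call saline, and NS from non-stressed mice, also given saline. The 3 groups share the strain and the region. The sources used here do not spell out SA:ANH, and the inhibitor's name and dose and the age of the mice are not stated in them. Stressed mice were chosen by subtype and the NS mice were not, so stress and the choice of subtype cannot be told apart in a comparison with NS.

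Hsp70 proteins, the Hspa genes, bind and release unfolded stretches of other proteins in a cycle driven by ATP. J-domain proteins, the Dnaj genes, bring clients to an Hsp70 and switch on its ATPase, and nucleotide exchange factors such as Hsph1 and Hspa4 restart the cycle. Hsp90 proteins act later on folded or nearly folded clients such as steroid receptors, and small heat shock proteins, the Hspb genes, hold unfolded proteins without ATP. In the cytosol, unfolded protein activates the transcription factor HSF1, which binds heat shock elements. In the ER it activates the unfolded protein response, whose factors ATF6 and XBP1 act through ER stress elements near the genes of ER chaperones.

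The ER members are introduced by their upstream sequence. The ER stress element, CCAAT and CCACG with any 9 bases between them, was found in 3 of the 58 members searched. These were also the 3 ER members that passed the test below, of which Dnajc3 was next to the threshold. Whether the element had a part in their change was not tested. Sequences are from RefSeq (GRCm38.p6), on the strand of the gene, 5′ to 3′, and the capitals mark the element on either strand. Hspa5 encodes BiP, the Hsp70 of the ER lumen (chr2:34771840-34772089, plus strand). Hsp90b1 encodes GRP94, the Hsp90 of the lumen (chr10:86705445-86705694, minus strand). Dnajc3 encodes P58IPK, a lumenal J-domain partner of BiP (chr14:118937682-118937931, plus strand). Each stretch is the 250 bases before the gene's start.
Hspa5: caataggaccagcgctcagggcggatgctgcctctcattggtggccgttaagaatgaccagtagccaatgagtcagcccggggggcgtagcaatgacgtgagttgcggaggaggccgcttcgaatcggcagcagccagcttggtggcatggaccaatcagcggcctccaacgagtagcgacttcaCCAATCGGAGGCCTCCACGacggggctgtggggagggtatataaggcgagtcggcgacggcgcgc
Hsp90b1: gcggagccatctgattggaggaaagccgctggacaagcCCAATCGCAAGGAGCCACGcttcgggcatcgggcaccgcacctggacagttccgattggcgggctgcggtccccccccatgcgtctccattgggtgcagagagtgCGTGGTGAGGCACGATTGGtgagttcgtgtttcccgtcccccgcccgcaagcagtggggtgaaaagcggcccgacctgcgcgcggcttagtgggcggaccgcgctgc
Dnajc3: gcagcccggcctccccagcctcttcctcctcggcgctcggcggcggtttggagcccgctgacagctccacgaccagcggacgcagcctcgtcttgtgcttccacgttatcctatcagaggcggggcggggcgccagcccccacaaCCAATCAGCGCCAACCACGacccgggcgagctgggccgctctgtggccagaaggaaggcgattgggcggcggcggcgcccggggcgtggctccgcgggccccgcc

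The element ended 47 bases before the start of Hspa5 and 87 bases before that of Dnajc3, and Hsp90b1 had a copy on each strand. Both strands of windows from 250 bases before to 50 bases after each start were searched, and 0.137% of 27025 genes held the element. A window was at hand for 58 members. The other 14, among them Hspa8, Hsp90aa1 and Hsp90ab1, were not searched for any element. The related element, ATTGG and CCACG with any 1 base between them, present in the windows of 0.0444% of genes, occurred in 1 member, Dnajb11, a J-domain partner of BiP that binds unfolded clients in the lumen. Its 30 bases at chr16:22857843-22857872 (plus strand) are shown with the element in capitals.
Dnajb11: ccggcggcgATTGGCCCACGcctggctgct

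The heat shock element was taken as GAA, TTC and GAA with any 2 bases between neighbours, and 0.662% of genes held it in their windows. It occurred in 5 of the 58 members searched, Chordc1, Dnajb6, Hspd1, Hspe1 and Hsph1. Hspd1 and Hspe1 lie head to head and share the same stretch. For Chordc1, an Hsp90 co-chaperone (chr9:18292259-18292288, plus strand), and Hsph1, a nucleotide exchange factor (chr5:149636287-149636316, minus strand), the capitals mark matches on either strand, which in Chordc1 are 3 that overlap each other. These are exact matches of letters in short windows, so other forms or places of an element were not seen, and binding of a factor was not measured.
Chordc1: accgGAACGTTCGGGAAAATTCCTGAAgca
Hsph1: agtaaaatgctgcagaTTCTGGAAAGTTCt

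Library totals lay between 30525714 and 40700115 counts for SA:ANH-KDM5Ci, between 33733470 and 42196472 for SA:ANH-vehicle, and between 29845097 and 36033714 for NS. Values below are CPM, a gene's count scaled to a common library total after TMM normalization, and fold changes are from edgeR's quasi-likelihood test in 1 fit of all 9 libraries, with Benjamini-Hochberg adjusted p over 15144 genes and a threshold of 0.05. A gene is said to have risen or fallen only where it passed that threshold. Whether the 3 libraries per group stem from different mice is not stated, and the p-values therefore reflect the spread among these libraries, which may be technical. CPM is not per length, so levels are compared between groups and not between genes.

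Between stressed mice given vehicle and NS mice, 0 of 67 members rose and 0 fell, where 0.0132% of all genes rose and 0% fell. The members' fold changes still lay to the positive side. Of the 67, 45 (67.2%) were above 0, against 51.6% of all genes, and their median log2 fold change was 0.039, against 0.004 over all genes. An unadjusted p under 0.05 was reached by 14 members (12 positive and 2 negative), 20.9% of them against 8.21% of all genes. The members' median SE was 0.0593, against 0.0804 over all genes, which can raise their share of low p. All 3 SA:ANH-vehicle libraries were above all 3 NS libraries for 16 members, where this held for 8.29% of genes, and below them for 9 members, where this held for 6.81% of genes. Under DESeq2, 3 members rose (Chordc1, Hspa5 and Hspb1), and under limma-voom 0 did.

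In stressed mice given the KDM5C inhibitor, 4 of 67 members rose relative to NS and 0 fell, where 1.86% of all genes rose and 2.11% fell. Those that rose were 3 chaperones of the ER lumen, Hspa5, Hsp90b1 and Dnajc3, and the cytosolic small heat shock protein Hspb1. An adjusted p depends on the p-values of all genes in the same comparison. A call in SA:ANH-KDM5Ci and not in SA:ANH-vehicle is therefore not by itself a difference between the stressed groups. Fold changes were above 0 for 40 members (59.7%, against 49.9% of all genes), with a median of 0.053 against -0.000. An unadjusted p under 0.05 was reached by 14 members (10 positive and 4 negative), 20.9% of them against 18.46% of all genes. The SA:ANH-KDM5Ci libraries lay above all NS libraries for 15 members and below them for 3, where this held for 11.5% and 12% of genes. Without NS replicate 3 no member passed, 1 passed without NS replicate 2 and without either replicate 1 or replicate 3 of SA:ANH-KDM5Ci, and 2 passed without SA:ANH-vehicle replicate 2.

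Between the inhibitor and vehicle, both in stressed mice, 0 of 67 members rose and 1, Hspa12b, fell, where 0.891% of all genes rose and 1.62% fell. The median log2 fold change of the members was 0.000, and 34 of 67 were above 0. Only 5.97% of members reached an unadjusted p under 0.05, against 14.2% of all genes. The libraries did not overlap for 2 of 67 members that were higher and 6 of 67 that were lower in SA:ANH-KDM5Ci. This held for 7.92% and 10.9% of all genes, and the members' lower share is near the latter. The 3 comparisons share groups, so their values are given side by side and are not independent of each other.

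**Figure D1:**
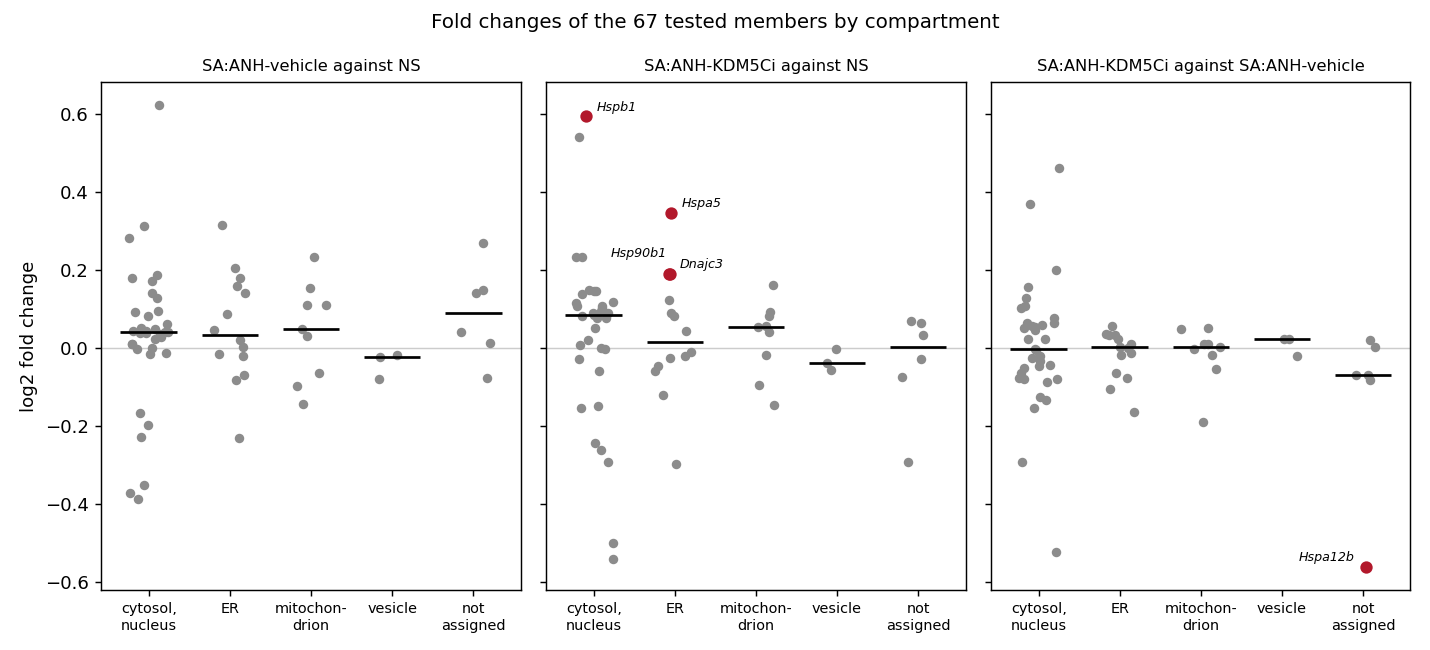
Log2 fold change (y axis) of each of the 67 tested members, by compartment (x axis), in the 3 comparisons. Each point is a gene, black bars are medians, and red points passed the adjusted threshold of 0.05. The red points are Hspb1 and the ER chaperones Hspa5, Hsp90b1 and Dnajc3 in SA:ANH-KDM5Ci against NS, and Hspa12b in SA:ANH-KDM5Ci against SA:ANH-vehicle.

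Hspa5, the BiP gene (chr2:34772090-34776529), had 357, 346 and 396 CPM in SA:ANH-KDM5Ci, 330, 377 and 368 CPM in SA:ANH-vehicle, and 298, 296 and 270 CPM in NS. Every stressed library was above every NS library, and the stressed groups overlapped each other. BiP mRNA rose 1.27-fold in SA:ANH-KDM5Ci over NS (log2 fold change 0.35, SE 0.07, adjusted p = 0.00959). In SA:ANH-vehicle over NS its log2 fold change was 0.31 (SE 0.07, adjusted p = 0.139), which ranked 37 of 15144 genes by p. The inhibitor and vehicle groups differed by 0.03 (SE 0.07, adjusted p = 0.877). Without NS replicate 3, its lowest library, the fold change over NS was 0.30 in SA:ANH-KDM5Ci and the adjusted p was 0.0627. The gene's span overlaps that of Rabepk, which reached at most 19.4 CPM in any library.

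Hsp90b1 (chr10:86690841-86705444), which folds secreted and membrane proteins such as integrins and Toll-like receptors, had 433, 438 and 461 CPM in SA:ANH-KDM5Ci, 421, 440 and 441 CPM in SA:ANH-vehicle, and 391, 388 and 388 CPM in NS. The stressed libraries all lay above the NS libraries, which were within a few CPM of each other. It rose 1.14-fold in SA:ANH-KDM5Ci over NS (log2 fold change 0.19, SE 0.04, adjusted p = 0.0264), against 0.16 (SE 0.04, adjusted p = 0.308) in SA:ANH-vehicle over NS. The difference between inhibitor and vehicle was 0.03 (SE 0.04, adjusted p = 0.803). Its call was lost on leaving out any SA:ANH-KDM5Ci library, SA:ANH-vehicle replicate 2, or NS replicate 2 or 3, at adjusted p from 0.0501 to 0.109.

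Dnajc3 (chr14:118937932-118981702), whose product also restrains the kinase PERK of the unfolded protein response, had 71.7, 67.3 and 70.9 CPM in SA:ANH-KDM5Ci, 70.6, 69.5 and 68.3 CPM in SA:ANH-vehicle, and 58.8, 61.7 and 63.7 CPM in NS. Again the stressed groups overlapped each other and both stood clear of NS. It rose 1.14-fold in SA:ANH-KDM5Ci over NS (log2 fold change 0.19, SE 0.05), at an adjusted p of 0.0498, next to the threshold. Against NS, SA:ANH-vehicle was at 0.18 (SE 0.05, adjusted p = 0.312), and between inhibitor and vehicle the log2 fold change was 0.01 (SE 0.05, adjusted p = 0.951). With all libraries kept, the call was lost under limma-voom, without TMM, without a filter on low counts and without robust moderation, at adjusted p from 0.0502 to 0.0665. With only SA:ANH-KDM5Ci and NS in the fit, the adjusted p was 0.0818. It was also lost on leaving out replicate 1 or 3 of SA:ANH-KDM5Ci, replicate 2 or 3 of SA:ANH-vehicle, or any NS library, at up to 0.156.

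The other lumenal members did not pass in any comparison. Dnajb11 had 59.1, 55.8 and 63.3 CPM in SA:ANH-KDM5Ci, 58.3, 60.3 and 62.1 CPM in SA:ANH-vehicle, and 56.6, 54.1 and 53.0 CPM in NS. Its log2 fold change was 0.14 (SE 0.06, adjusted p = 0.531) in SA:ANH-vehicle over NS, where the groups did not overlap, and 0.12 (SE 0.06, adjusted p = 0.263) in SA:ANH-KDM5Ci over NS, where they did. Dnajb9, a J-domain protein that passes misfolded clients to degradation and keeps the stress sensor IRE1 in check, averaged 50.7 ± 2.3, 50.7 ± 0.86 and 47.8 ± 3.3 CPM in SA:ANH-KDM5Ci, SA:ANH-vehicle and NS (SD, n = 3 each), and its groups overlapped. Dnajc10, a disulfide reductase that works with BiP, averaged 106 ± 2.7 CPM in SA:ANH-KDM5Ci, 112 ± 1.5 CPM in SA:ANH-vehicle and 110 ± 7.2 CPM in NS. Its log2 fold change over NS was -0.06 (SE 0.05) with the inhibitor and 0.02 (SE 0.05) with vehicle. Hspa13, an ER-associated Hsp70 relative, ranged over 63.5 to 67.3 CPM in SA:ANH-KDM5Ci, 59.8 to 66.5 CPM in SA:ANH-vehicle and 55.9 to 65.7 CPM in NS.

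After these values had been seen, the 14 ER members were divided into 7 of the lumen and 7 of the membrane, as a description with no test. Fold changes of the lumenal members over NS were above 0 for 7 of 7 in SA:ANH-vehicle and 6 of 7 in SA:ANH-KDM5Ci, with medians of 0.141 and 0.123. The summed CPM of the lumenal members was 1139, 1132 and 1211 in SA:ANH-KDM5Ci, 1100, 1177 and 1165 in SA:ANH-vehicle, and 1006, 1023 and 1007 in NS, with no overlap between stressed and NS libraries. Most of this sum came from Hspa5 and Hsp90b1, so it is not separate from the values of these genes given above. The membrane members, Dnajb12, Dnajb14, Dnajc1, Dnajc14, Dnajc16, Dnajc18 and Dnajc25, had medians of -0.026 in SA:ANH-KDM5Ci and -0.022 in SA:ANH-vehicle over NS. Their summed CPM was 332, 336 and 320 in SA:ANH-KDM5Ci, 341, 328 and 321 in SA:ANH-vehicle, and 329, 346 and 343 in NS, and these overlapped. Over the undivided 14, the medians were 0.015 in SA:ANH-KDM5Ci and 0.033 in SA:ANH-vehicle over NS, with 3 and 0 members that rose.

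Among the membrane members, Dnajb12, which sends misfolded membrane proteins to degradation with cytosolic Hsp70, had 33.4, 33.9 and 33.1 CPM in SA:ANH-KDM5Ci, 32.4, 32.6 and 31.6 CPM in SA:ANH-vehicle, and 34.8, 34.1 and 33.3 CPM in NS. Its vehicle libraries lay below both other groups, by a log2 fold change of -0.08 from NS (SE 0.05, adjusted p = 0.722). Dnajc1, whose J domain faces the lumen, had 21.7, 19.6 and 19.4 CPM in SA:ANH-KDM5Ci, 22.9, 23.1 and 21.8 CPM in SA:ANH-vehicle, and 17.5, 19.8 and 21.6 CPM in NS. Vehicle was the highest group for this gene, at 0.21 over NS (SE 0.08, adjusted p = 0.517), and the inhibitor was at -0.16 from vehicle (SE 0.08, adjusted p = 0.385). Its span overlaps that of Mllt10, so reads of the pair may be mixed.

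**Figure D2:**
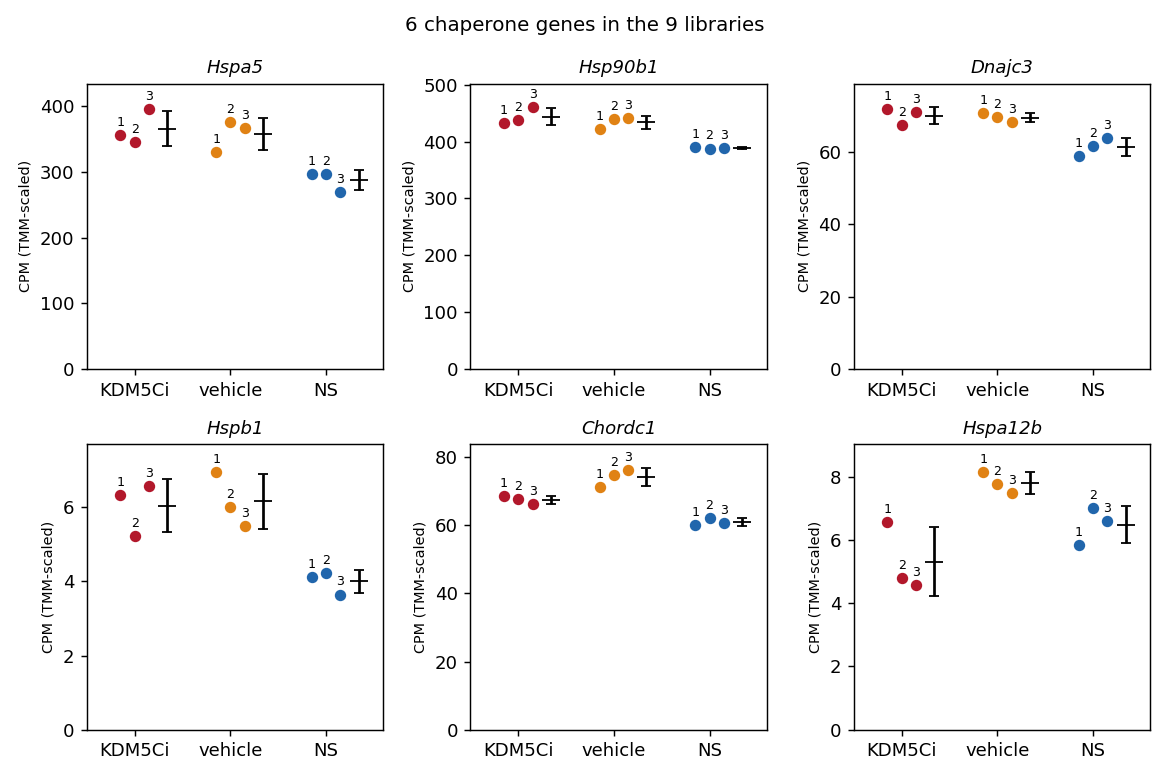
CPM on TMM-scaled library sizes (y axis, from 0) of 6 members in the 9 libraries, by group (x axis). Coloured points are libraries with their replicate number, and black bars are the mean and SD of 3 libraries. For Hspa5, Hsp90b1, Dnajc3 and Hspb1 all 6 stressed libraries lie above the 3 NS libraries, Chordc1 is highest in SA:ANH-vehicle, and Hspa12b is lowest in SA:ANH-KDM5Ci.

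The main cytosolic chaperones did not pass in any comparison. Hspa8, the constitutive Hsp70 that among other tasks strips clathrin from vesicles, had 2185, 2185 and 2387 CPM in SA:ANH-KDM5Ci, 2123, 2115 and 2228 CPM in SA:ANH-vehicle, and 2153, 2092 and 2047 CPM in NS. The inhibitor libraries lay above the NS ones, at 0.10 on the log2 scale (SE 0.05, adjusted p = 0.280), and SA:ANH-KDM5Ci replicate 3 was the highest library. Hsp90aa1, the inducible cytosolic Hsp90, had 1649, 1743 and 1920 CPM in SA:ANH-KDM5Ci, 1645, 1704 and 1748 CPM in SA:ANH-vehicle, and 1637, 1624 and 1712 CPM in NS, with overlap throughout. Hsp90ab1, its constitutive relative, averaged 1825 ± 59, 1759 ± 62 and 1761 ± 57 CPM in SA:ANH-KDM5Ci, SA:ANH-vehicle and NS (SD, n = 3 each), and its log2 fold changes were -0.00 in SA:ANH-vehicle over NS and 0.05 in both other comparisons.

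The co-chaperones of the cytosolic Hsp70 cycle did not pass either. Hsph1 had 411, 410 and 433 CPM in SA:ANH-KDM5Ci, 405, 412 and 418 CPM in SA:ANH-vehicle, and 401, 396 and 385 CPM in NS. Both stressed groups were above all NS libraries, by log2 fold changes of 0.08 (SE 0.04, adjusted p = 0.318) with the inhibitor and 0.06 (SE 0.04, adjusted p = 0.775) with vehicle. Dnaja1, a general J-domain partner of Hspa8, had 389, 400 and 415 CPM in SA:ANH-KDM5Ci, 378, 394 and 412 CPM in SA:ANH-vehicle, and 375, 371 and 365 CPM in NS, again without overlap between stressed and NS libraries. Its log2 fold change over NS was 0.12 (SE 0.05, adjusted p = 0.200) with the inhibitor and 0.09 (SE 0.05, adjusted p = 0.641) with vehicle. Hspa4 averaged 338 ± 13 CPM in SA:ANH-KDM5Ci, 344 ± 6.0 CPM in SA:ANH-vehicle and 334 ± 8.1 CPM in NS, which overlapped.

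Nor did the classical heat-inducible genes pass. Hspa1a and Hspa1b encode nearly identical inducible Hsp70 proteins, so how reads were divided between them is uncertain, and their transcripts were not compared here. Upstream, their 250 bases before the start differ at 3 positions. Hspa1a had 13.2, 12.4 and 12.4 CPM in SA:ANH-KDM5Ci, 12.9, 14.5 and 12.7 CPM in SA:ANH-vehicle, and 13.8, 12.9 and 12.1 CPM in NS. Hspa1b had 13.9, 12.5 and 13.2 CPM in SA:ANH-KDM5Ci, 12.4, 14.4 and 13.9 CPM in SA:ANH-vehicle, and 12.7, 11.98 and 11.1 CPM in NS. Groups overlapped for both, with adjusted p of at least 0.387. Dnajb1, the inducible partner of Hspa1a that also binds HSF1, had 58.0, 55.8 and 59.2 CPM in SA:ANH-KDM5Ci, 56.3, 63.2 and 63.4 CPM in SA:ANH-vehicle, and 56.7, 52.0 and 51.9 CPM in NS. At 0.19 (SE 0.06, adjusted p = 0.399), its fold change in SA:ANH-vehicle over NS was the larger, and the groups overlapped.

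Chordc1 (chr9:18292267-18314000), which binds Hsp90 and carries the heat shock element shown above, was the member nearest to the threshold in SA:ANH-vehicle against NS. It had 68.5, 67.7 and 66.3 CPM in SA:ANH-KDM5Ci, 71.2, 74.8 and 76.4 CPM in SA:ANH-vehicle, and 60.2, 62.2 and 60.7 CPM in NS. None of the 3 groups overlapped another, with vehicle highest, the inhibitor between and NS lowest. Its log2 fold change in SA:ANH-vehicle over NS was 0.28 (SE 0.05, adjusted p = 0.0612), the tenth lowest p of all genes. It passed under DESeq2 (adjusted p = 0.000339), on library sizes without TMM (0.0432) and without SA:ANH-KDM5Ci replicate 3 (0.0455). The inhibitor group was at 0.15 over NS (SE 0.05, adjusted p = 0.108) and at -0.13 from vehicle (SE 0.05, adjusted p = 0.182).

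Hspb1 (chr5:135887919-135889563), the small heat shock protein HSP27 that binds unfolded proteins and actin filaments, had 6.33, 5.24 and 6.57 CPM in SA:ANH-KDM5Ci, 6.96, 6.02 and 5.501 CPM in SA:ANH-vehicle, and 4.13, 4.24 and 3.65 CPM in NS. These rest on 109 to 297 counts per library. Each stressed library was above each NS library. Hspb1 rose 1.51-fold in SA:ANH-KDM5Ci over NS (log2 fold change 0.59, SE 0.13, adjusted p = 0.0198), and in SA:ANH-vehicle over NS it was at 0.62 (SE 0.13, adjusted p = 0.130). Before adjustment, its p by edgeR was 0.000466 in the former and 0.000292 in the latter. Inhibitor and vehicle differed by -0.03 (SE 0.12, adjusted p = 0.951). The call was lost on leaving out replicate 1 or 3 of SA:ANH-KDM5Ci or replicate 2 or 3 of NS, at adjusted p from 0.0528 to 0.0985.

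Of the other small heat shock proteins, Hspb8, which works with Bag3 in clearing misfolded proteins, had 6.92, 4.82 and 6.25 CPM in SA:ANH-KDM5Ci, 5.46, 4.03 and 4.38 CPM in SA:ANH-vehicle, and 3.51, 4.07 and 4.85 CPM in NS. Its SA:ANH-KDM5Ci and NS libraries overlapped slightly, and the log2 fold change between them was 0.54 (SE 0.17, adjusted p = 0.0943), or 0.67 at an adjusted p of 0.0386 without SA:ANH-KDM5Ci replicate 2. Hspb2, Hspb3, Hspb6 and Hspb7 had between 7 and 118 counts per library and did not pass in any comparison. In SA:ANH-vehicle over NS their log2 fold changes were -0.23, -0.37, -0.17 and -0.35, and Hspb3 and Hspb7 lay below all NS libraries. In SA:ANH-KDM5Ci over NS the fold changes were 0.23, -0.24, -0.29 and -0.15, in the same order and with overlap. Hspa2, an Hsp70 best known from spermatogenesis and also made in brain, lay below NS as well. It had 25.7, 26.8 and 24.8 CPM in SA:ANH-KDM5Ci, 23.9, 29.2 and 27.8 CPM in SA:ANH-vehicle, and 30.9, 29.9 and 32.0 CPM in NS, with both stressed groups below all NS libraries. The log2 fold change in SA:ANH-KDM5Ci was -0.26 from NS (SE 0.07, adjusted p = 0.065), and it passed without SA:ANH-vehicle replicate 1 (adjusted p = 0.0206) and under DESeq2 (0.0439). Dnajb3, on 25 to 47 counts per library, lay below NS without overlap in both stressed groups. Its log2 fold change was -0.39 (SE 0.23, adjusted p = 0.709) with vehicle and -0.54 (SE 0.23, adjusted p = 0.235) with the inhibitor.

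Over the 35 cytosolic and nuclear members tested, the median log2 fold change was 0.039 in SA:ANH-vehicle over NS, 0.083 in SA:ANH-KDM5Ci over NS and -0.004 between inhibitor and vehicle. Beside it the ER members stood at 0.033, 0.015 and 0.001, and all genes at 0.004, -0.000 and 0.003. Of the 14 and 35, 3 ER members and 1 cytosolic member rose in SA:ANH-KDM5Ci over NS. The difference between compartments was not tested, since members are not replicates.

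**Figure D3:**
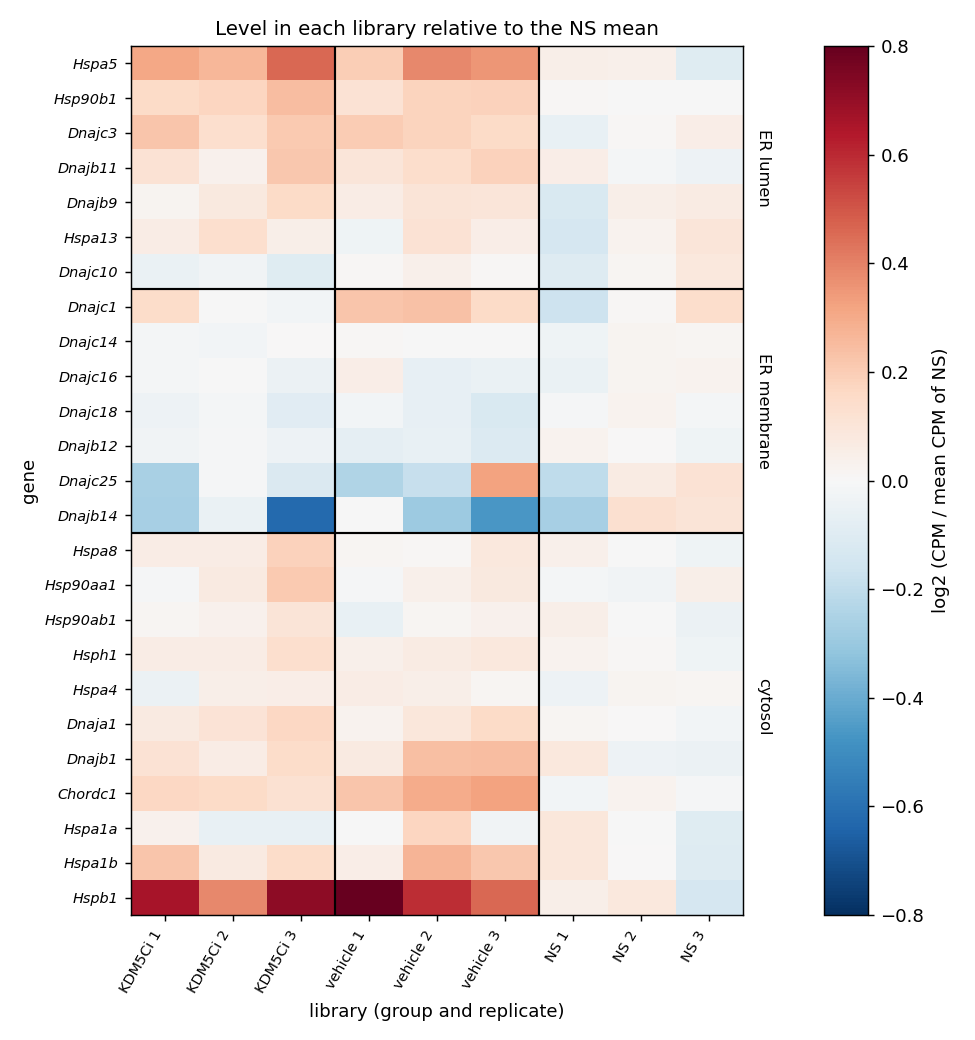
Level of 25 members (rows) in each of the 9 libraries (columns) as log2 of CPM over the NS mean of the same gene. Red is above and blue below the NS mean, and lines separate groups and compartments. Hspa5, Hsp90b1 and Dnajc3 at the top and Chordc1 and Hspb1 near the bottom are red in all 6 stressed libraries, while the rows of Hsp90ab1 and Hspa4 stay pale.

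In mitochondria, Hspd1 and Hspe1 form the HSP60 chaperonin and its lid, and Hspa9 is the Hsp70 that pulls proteins into the matrix. Hspd1 had 176, 182 and 186 CPM in SA:ANH-KDM5Ci, 187, 184 and 194 CPM in SA:ANH-vehicle, and 173, 175 and 176 CPM in NS. Vehicle lay above NS without overlap, by 0.11 (SE 0.04, adjusted p = 0.535). Hspe1, whose span overlaps that of Hspd1, had 41.7, 36.6 and 42.6 CPM in SA:ANH-KDM5Ci, 36.5, 40.1 and 43.7 CPM in SA:ANH-vehicle, and 37.3, 35.03 and 35.8 CPM in NS, which overlapped. Hspa9 averaged 259 ± 11, 250 ± 4.9 and 245 ± 3.3 CPM in SA:ANH-KDM5Ci, SA:ANH-vehicle and NS (SD, n = 3 each), with the inhibitor libraries just above all NS libraries at 0.08 (SE 0.05, adjusted p = 0.370).

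Other mitochondrial members varied in direction. Dnajc28 had 14.0, 13.7 and 14.7 CPM in SA:ANH-KDM5Ci, 16.2, 15.7 and 16.6 CPM in SA:ANH-vehicle, and 14.0, 14.2 and 13.1 CPM in NS. Its vehicle libraries were above those of both other groups, by 0.23 over NS (SE 0.07, adjusted p = 0.342), and the inhibitor group was at -0.19 from vehicle (SE 0.07, adjusted p = 0.200). Dnajc30, a J-domain protein tied to the respiratory chain, had 31.0, 30.4 and 31.2 CPM in SA:ANH-KDM5Ci, 29.3, 30.2 and 33.3 CPM in SA:ANH-vehicle, and 34.9, 34.1 and 33.6 CPM in NS. Both stressed groups were below NS, each at -0.15 (SE 0.06) with adjusted p of 0.196 for the inhibitor and 0.536 for vehicle, and the gene's span overlaps that of Bud23. No mitochondrial member passed in any comparison, and the medians over the 9 were 0.047 in SA:ANH-vehicle over NS, 0.053 in SA:ANH-KDM5Ci over NS and 0.001 between inhibitor and vehicle.

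None of the synaptic and endosomal J-domain proteins passed. Dnajc5, the cysteine string protein that guards SNARE proteins on synaptic vesicles, had 389, 402 and 382 CPM in SA:ANH-KDM5Ci, 408, 395 and 387 CPM in SA:ANH-vehicle, and 384, 410 and 410 CPM in NS. Dnajc6, the neuronal auxilin that recruits Hspa8 to clathrin coats, had 465, 508 and 493 CPM in SA:ANH-KDM5Ci, 473, 484 and 487 CPM in SA:ANH-vehicle, and 465, 504 and 500 CPM in NS. Dnajc13, an endosomal protein, averaged 88.6 ± 6.0 CPM in SA:ANH-KDM5Ci, 87.2 ± 5.4 CPM in SA:ANH-vehicle and 92.2 ± 5.5 CPM in NS. All their groups overlapped, and their log2 fold changes lay between -0.08 and 0.02 in the 3 comparisons.

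Hspa12b (chr2:131127412-131145985), a distant Hsp70 relative known from endothelial cells, was the only member that fell under the inhibitor. It had 6.56, 4.78 and 4.58 CPM in SA:ANH-KDM5Ci, 8.16, 7.75 and 7.47 CPM in SA:ANH-vehicle, and 5.85, 6.996 and 6.59 CPM in NS, on 148 to 349 counts per library. The inhibitor libraries all lay below the vehicle ones and overlapped NS, and vehicle lay above NS. Hspa12b fell by 0.56 on the log2 scale in SA:ANH-KDM5Ci relative to SA:ANH-vehicle (SE 0.13, adjusted p = 0.0398), to 0.677 of its vehicle level. Against NS the inhibitor was at -0.29 (SE 0.13, adjusted p = 0.262) and vehicle at 0.27 (SE 0.13, adjusted p = 0.616). The call stood on leaving out replicate 1 of SA:ANH-KDM5Ci or of NS. It was lost on leaving out replicate 2 or 3 of SA:ANH-KDM5Ci, any SA:ANH-vehicle library, or replicate 2 or 3 of NS, at adjusted p from 0.0562 to 0.172, and at 0.0663 with only these 2 groups in the fit.

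Some endothelial markers fell in the same comparison as Hspa12b, and the other comparisons were less alike. Against NS, 3 of 10 fell in SA:ANH-KDM5Ci, where Hspa12b did not pass. In SA:ANH-vehicle over NS 0 rose and 0 fell. Of 10, 3 fell between inhibitor and vehicle, namely Cldn5, Kdr and Slco1a4, and 0 rose. Their summed CPM was 189 to 250 in SA:ANH-KDM5Ci, 246 to 282 in SA:ANH-vehicle and 247 to 268 in NS, and no marker was at 0 throughout. Between inhibitor and vehicle, 9 of the 10 endothelial markers were below 0, with a median log2 fold change of -0.231. Pecam1, another of the list that was picked after values were seen, averaged 21.1 CPM in SA:ANH-KDM5Ci and 21.2 CPM in SA:ANH-vehicle. Meningeal markers also differed, with 4 of 10 that fell and a summed CPM of 53.6 to 59.3 in SA:ANH-KDM5Ci, against 77.9 to 125 in SA:ANH-vehicle and 68.8 to 115 in NS. Of 8 tested mural markers, 7 were below 0 between inhibitor and vehicle and 2 fell, Pdgfrb and Anpep. Their list, in which Acta2 was at 0 throughout, had a summed CPM of 130 to 150 in SA:ANH-KDM5Ci, 148 to 180 in SA:ANH-vehicle and 138.5 to 160.1 in NS. The part of these 3 marker lists in the fall of Hspa12b was not tested. In bulk tissue, fewer cells of a type and less RNA per cell cannot be told apart.

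Its relative Hspa12a ranged over 253 to 272 CPM in SA:ANH-KDM5Ci, 250 to 278 CPM in SA:ANH-vehicle and 266 to 290 CPM in NS, with a log2 fold change of 0.00 (SE 0.05) between inhibitor and vehicle. Dnajc12, a co-chaperone of the aromatic amino acid hydroxylases, averaged 10.7 ± 0.24 CPM in SA:ANH-KDM5Ci, 11.2 ± 0.83 CPM in SA:ANH-vehicle and 10.2 ± 0.81 CPM in NS, and Dnajc4 averaged 8.90 ± 0.54, 9.34 ± 0.27 and 9.08 ± 0.46 CPM in the same order of groups. Dnajc24, which takes part in the diphthamide modification of a translation factor, averaged 4.69 ± 0.34 CPM in SA:ANH-KDM5Ci, 5.75 ± 1.1 CPM in SA:ANH-vehicle and 5.21 ± 0.61 CPM in NS. Groups overlapped for all of these.

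Blood markers moved with the ER chaperones and Hspb1. Of 6 tested, 5 rose in SA:ANH-KDM5Ci over NS and 2 in SA:ANH-vehicle over NS, and 0 changed between inhibitor and vehicle. Their summed CPM was 445 to 587 in SA:ANH-KDM5Ci, 486 to 555 in SA:ANH-vehicle and 279 to 321 in NS, and no marker was at 0 throughout. Microglial markers had a summed CPM of 408 to 505 in SA:ANH-KDM5Ci, 420 to 433 in SA:ANH-vehicle and 399 to 408 in NS, and 0 of 9 passed in any comparison. Oligodendrocyte markers were above 0 for 8 of 8 in SA:ANH-KDM5Ci over NS (median log2 fold change 0.560), and their summed CPM was 2734 to 3573 in SA:ANH-KDM5Ci, 1947 to 3055 in SA:ANH-vehicle and 1495 to 3044 in NS. Striatal markers were also above 0 for 8 of 8 (median 0.804), with a summed CPM of 225 to 550.0 in SA:ANH-KDM5Ci, 196 to 260 in SA:ANH-vehicle and 175 to 308 in NS. None of these oligodendrocyte and striatal markers passed in any comparison, and none was at 0 throughout. The part of these 4 marker lists in the rise of Hspa5, Hsp90b1, Dnajc3 and Hspb1 was not tested. The sum over 9 markers of excitatory neurons was 5572 to 5972 CPM in SA:ANH-KDM5Ci, 5797 to 6119 CPM in SA:ANH-vehicle and 5831 to 6281 CPM in NS, and 0 of them passed.

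The other genes of these pathways were counted from lists that do not overlap the members. Of 30 tested genes for other ER chaperones and the unfolded protein response, 0 rose and 0 fell against NS in either stressed group. Fold changes over NS were above 0 for 25 of 30 in SA:ANH-vehicle and 22 of 30 in SA:ANH-KDM5Ci, with medians of 0.084 and 0.089, against 0.004 and -0.000 over all genes. Calr, the lumenal lectin chaperone calreticulin, had 408, 377 and 419 CPM in SA:ANH-KDM5Ci, 387, 410 and 418 CPM in SA:ANH-vehicle, and 363, 355 and 318 CPM in NS. The stressed libraries were all above the NS ones, by 0.22 (SE 0.06, adjusted p = 0.060) with the inhibitor and 0.23 (SE 0.06, adjusted p = 0.278) with vehicle. Pdia6, a disulfide isomerase, had 119, 113 and 129 CPM in SA:ANH-KDM5Ci, 110, 130 and 129 CPM in SA:ANH-vehicle, and 104, 105 and 96.0 CPM in NS, at 0.25 (SE 0.07, adjusted p = 0.0713) with the inhibitor and 0.27 (SE 0.07, adjusted p = 0.278) with vehicle. Pdia4, of the same family, was at 0.17 (adjusted p = 0.145) with the inhibitor and 0.27 (adjusted p = 0.172) with vehicle.

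Of the regulators on that list, 1 rose under the inhibitor relative to vehicle, Atf4, the transcription factor of the integrated stress response. Atf4 had 113, 118 and 135 CPM in SA:ANH-KDM5Ci, 99.5, 92.8 and 97.9 CPM in SA:ANH-vehicle, and 110, 97.3 and 93.4 CPM in NS, so all inhibitor libraries lay above the others. Its log2 fold change was 0.34 over vehicle (SE 0.07, adjusted p = 0.0303) and 0.28 over NS (SE 0.07, adjusted p = 0.0513), and -0.05 in SA:ANH-vehicle over NS (SE 0.07, adjusted p = 0.913). Ddit3, the stress factor CHOP, averaged 16.9, 17.9 and 16.4 CPM in SA:ANH-KDM5Ci, SA:ANH-vehicle and NS. Xbp1, Selenos and Crebrf were listed at 0 in all libraries, which may be a failed estimate and was not read as absence of expression.

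**Figure D4:**
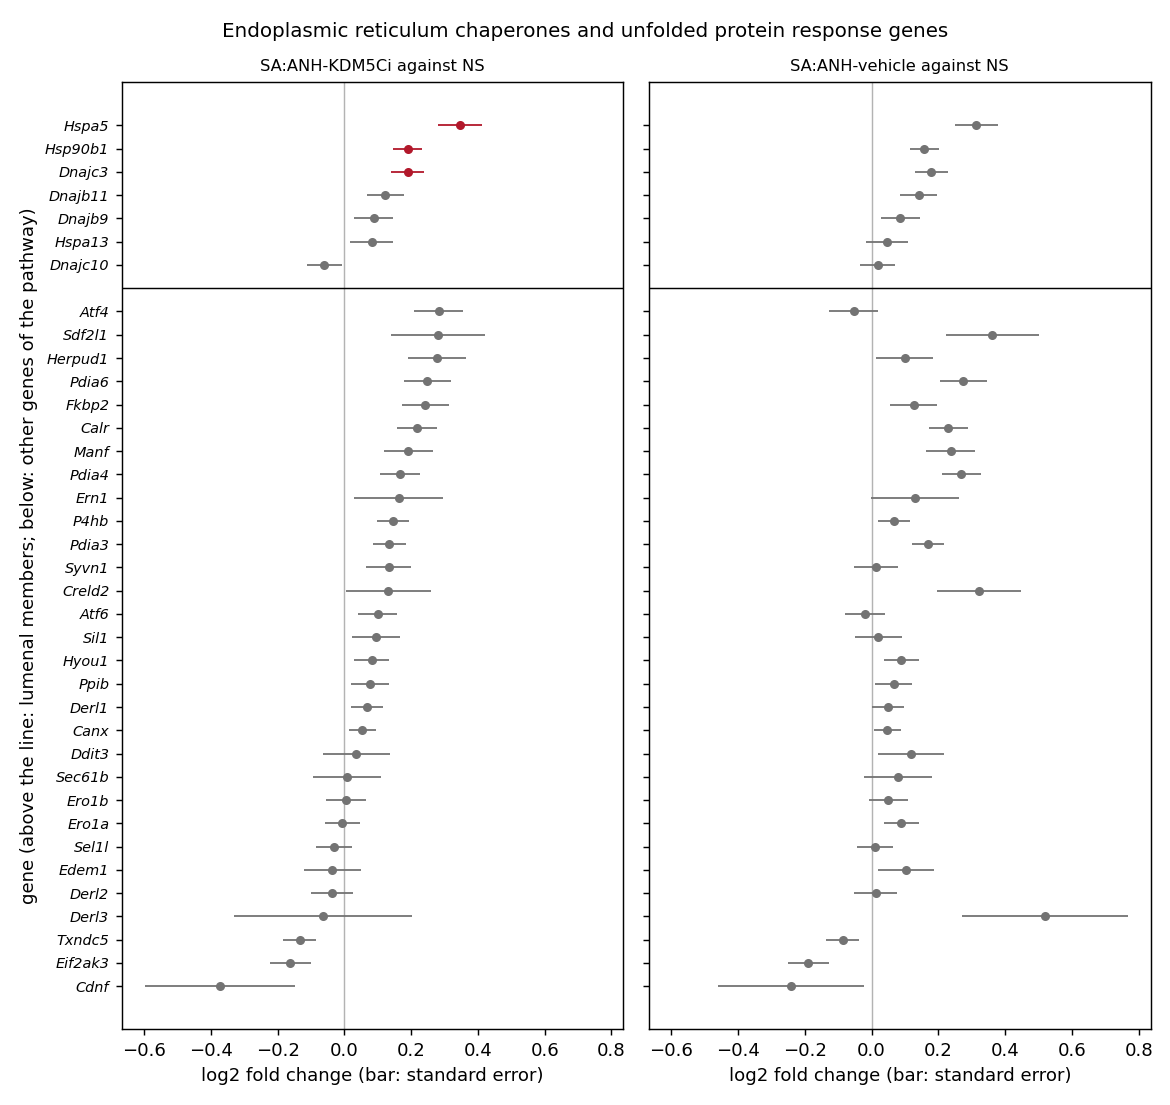
Log2 fold change over NS (x axis) with its standard error (bars) of the 7 lumenal members (above the line) and the 30 other tested genes of ER chaperones and the unfolded protein response (below it), in SA:ANH-KDM5Ci (left) and SA:ANH-vehicle (right). Red marks genes that passed the adjusted threshold of 0.05, which are Hspa5, Hsp90b1 and Dnajc3 on the left. Most points lie to the right of 0 in both panels, and Atf4 stands at 0.28 on the left and -0.05 on the right.

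Among HSF factors and their regulators, 0 of 6 tested genes passed in any comparison. Hsf1 averaged 30.3 CPM in SA:ANH-KDM5Ci, 30.3 CPM in SA:ANH-vehicle and 26.8 CPM in NS, with log2 fold changes over NS of 0.18 in both stressed groups (adjusted p = 0.181 with the inhibitor and 0.527 with vehicle). Of 26 other HSF1 targets and cytosolic co-chaperones, Bag5, a nucleotide exchange factor, rose in SA:ANH-KDM5Ci over NS, at 60.3, 57.9 and 63.6 CPM in SA:ANH-KDM5Ci against 50.1, 49.7 and 49.7 CPM in NS (log2 fold change 0.28, SE 0.06, adjusted p = 0.0116). Serpinh1, the collagen chaperone HSP47, which resides in the ER, fell under the inhibitor relative to vehicle, at 11.7, 10.99 and 10.6 CPM in SA:ANH-KDM5Ci against 15.7, 13.4 and 13.9 CPM in SA:ANH-vehicle (log2 fold change -0.37, SE 0.08, adjusted p = 0.0325). The meningeal markers given above, collagen genes among them, lay on the same side, and their part was not tested. The 7 tested subunits of TRiC, the cytosolic chaperonin, had log2 fold changes of 0.08 to 0.21 in SA:ANH-KDM5Ci over NS and -0.00 to 0.11 in SA:ANH-vehicle over NS, and 0 passed.

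Hsp90 holds the glucocorticoid receptor in complexes with immunophilins, and 1 of 10 genes of that list changed. Fkbp5, an immunophilin and itself a target of the receptor, had 65.6, 49.0 and 49.5 CPM in SA:ANH-KDM5Ci, 30.4, 33.1 and 32.5 CPM in SA:ANH-vehicle, and 21.7, 23.6 and 23.2 CPM in NS. No group overlapped another, and Fkbp5 rose under the inhibitor by log2 fold changes of 0.77 over vehicle (SE 0.10, adjusted p = 0.00113) and 1.26 over NS (SE 0.10, adjusted p = 2.3e-05). Its value in SA:ANH-vehicle over NS was 0.49 (SE 0.10, adjusted p = 0.153). The receptor gene Nr3c1 averaged 140 CPM in SA:ANH-KDM5Ci, 164 CPM in SA:ANH-vehicle and 164 CPM in NS (adjusted p = 0.0722 against vehicle and 0.0561 against NS). Ptges3, the Hsp90 co-chaperone p23, was at 0.18 over NS with the inhibitor (SE 0.05, adjusted p = 0.0554). In mitochondrial protein quality control 0 of 12 genes passed.

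Across libraries, single members most often peaked in SA:ANH-KDM5Ci replicate 3, where 19 of 67 were highest (28.4%, against 19.6% of all genes), and in SA:ANH-vehicle replicate 3, where 14 were (20.9%, against 8.28% of all genes). The lowest value fell in NS replicates 1, 2 and 3 for 16, 10 and 14 members. The share of all genes lowest in these libraries was not computed, so these counts have no background. Within a group, the members had a median coefficient of variation over the 52 members at 10 CPM or more of 3.7% in SA:ANH-KDM5Ci, 3.2% in SA:ANH-vehicle and 3.47% in NS. Dnajb14 had the highest in each group, at 19.3%, 16.4% and 14.5%. All members together made up between 1.15% and 1.26% of a library's CPM.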

How the data were processed

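Total RNA from frozen medial prefrontal cortex (Direct-zol kit) went into SureSelect strand-specific libraries, per the labels' protocols. The authors deposited 1 table of expected counts per gene for the 9 libraries. The submitters' processing notes name mm10 as the build and list Bowtie2 2.2.3, TopHat2 2.0.13 and Trimmomatic 0.32. No source used here names the counter or its strand setting, so overlapping genes cannot be told apart. The table held 36172 features and 0 columns of other samples. Symbols, positions and upstream sequences came from RefSeq tables of GRCm38.p6, in which 32891 IDs matched. RefSeq and other annotations may place a gene's start differently.

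Expected counts were rounded to whole numbers. edgeR 4.0.16 in R 4.3.3 filtered genes (filterByExpr, 15144 left), scaled libraries by TMM (factors 0.987 to 1.01) and ran its quasi-likelihood test with robust moderation, 1 mean per group. Each SE was taken as the absolute log2 fold change divided by the square root of F. A count of 0 allows up to 3 counts, or 0.101 CPM in the shallowest library, for counting error only. Tried as alternatives were limma-voom (limma 3.58.1), DESeq2 1.42.0, no TMM, other filters and thresholds, only 2 groups, no robust moderation, a replicate block, and each library left out.

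The members, compartments and lists were chosen with earlier results of these data known. Named genes were every member that passed, 20 main chaperones whatever their change, up to 3 members of lowest p per compartment and comparison, and up to 4 genes per other list, of which not all are printed. Hspa13, Dnajb3, Dnajb14, Dnajc21, Dnajb5, Hspb2, Hspb3, Hspb6, Hspb7, Ddit3, Pecam1 and the genes named for their ER stress element were picked outside this rule, after values were seen. The test was checked on simulated counts for SA:ANH-vehicle against NS, with 50 genes changed at each fold. It recovered 58% at 1.25-fold, 76% at 1.5-fold, and 100% at 2-fold and at 3-fold, with 13 false calls in all. Changes below 1.25-fold were not simulated, so a gene that did not pass may still differ by a small amount.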

Additional observations from a re-analysis of the deposited data

How the results depend on the processing

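Counts of calls were small and moved with the processing. In SA:ANH-vehicle against NS the 0 members that rose became 3 under DESeq2, 1 without TMM and 1 at an adjusted p under 0.1, and 0 to 1 with a library left out. Calls over all genes, 2 at first, were 81 under DESeq2, 11 without TMM, 11 without a filter, 17 with only these groups, 15 at 0.1, and 2 to 17 with a library left out. The ER median was then -0.014 to 0.087. Between inhibitor and vehicle the 1 member that fell was 0 with only these groups and 0 to 1 with a library left out. The cytosolic median ran from -0.008 to 0.037, and the ER median was -0.022 without TMM. All 380 calls became 593 at 0.1 and 203 to 429 with a library left out. In SA:ANH-KDM5Ci against NS the 4 members that rose became 0 to 5 with a library left out. The 0 that fell became 1 (Hspa2) under DESeq2, with only these groups and at 0.1, and 0 to 1 with a library left out. All 601 calls became 1017 at 0.1 and 269 to 747 with a library left out. The cause was not tested, beyond fewer samples or another threshold. The labels state no pairing of libraries by replicate number, and the correlations did not settle it. Of 9 same-number pairs, 3 had deviations correlated over 0.1 (range -0.144 to 0.238), and 5 of 9 libraries correlated best with their own number. Between the 2 stressed groups the same-number pairs were at 0.238, 0.0839 and 0.184, and those with NS lay between -0.144 and 0.102. With the replicate number as a block, 0 members changed in SA:ANH-vehicle against NS, 0 fell between inhibitor and vehicle (Hspa12b, adjusted p = 0.0549), and 3 rose in SA:ANH-KDM5Ci against NS (Dnajc3, 0.0625), with 2, 363 and 708 calls over all genes. Of 1836 member values recomputed, most of them for results not called at first, 1787 kept their side of the threshold. The uncalled ones among these stayed within 1 SE of the main value, though some changed sign, such as Dnajc10 in SA:ANH-vehicle against NS. A further 33 lost the threshold, 9 gained it, 7 stayed uncalled but moved by at least 1 SE, and 0 reversed among called values. The 33 losses all fell on the few called results. Of 18 alternatives each, the rise over NS in SA:ANH-KDM5Ci passed in 17 for Hspa5, 14 for Hspb1, 12 for Hsp90b1 and 5 for Dnajc3. The fall of Hspa12b passed in 9 of 18. Among the calls, Hspb1 and Hspa12b rest on 109 to 297 and 148 to 349 counts per library, and Dnajb13, tested and not called, had 2 to 16.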

Other observations

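The ER stress element occurred in the windows of 21 tested genes in all, and these are described here beyond the 3 members, with no test. Fold changes in SA:ANH-vehicle over NS were above 0 for 20 of the 21, with a median of 0.158, where 51.6% of all genes were above 0 with a median of 0.004. Without the members, 17 of 18 were above 0, with a median of 0.099. In SA:ANH-KDM5Ci over NS 16 of 21 were above 0, at a median of 0.133, and 13 of 18 without the members. Between inhibitor and vehicle 8 of 21 were. Beside Hspa5, Hsp90b1 and Dnajc3 the genes include Calr, Canx, Pdia6, Creld2, Syvn1 and Derl3 of the ER, and genes with other roles such as Adcy3, an adenylyl cyclase, and Hnrnpa3, an RNA-binding protein. Xlr3a, Xlr3b and Xlr3c are near-identical copies, so their reads may be mixed and their values may not be separate. The heat shock element occurred in 74 tested genes, of which 43 were above 0 in SA:ANH-vehicle over NS (median 0.030) and 41 in SA:ANH-KDM5Ci over NS (median 0.007).

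RNA-binding proteins that respond to temperature did not move as 1 group. Srsf10, a splicing factor, had 77.7, 76.0 and 71.8 CPM in SA:ANH-KDM5Ci, 74.9, 76.2 and 78.4 CPM in SA:ANH-vehicle, and 59.4, 62.4 and 62.6 CPM in NS, and rose in SA:ANH-KDM5Ci over NS (log2 fold change 0.29, SE 0.05, adjusted p = 0.00502 by edgeR). In SA:ANH-vehicle over NS it was at 0.32 (SE 0.05, adjusted p = 0.0579). The cold-inducible genes Cirbp and Rbm3 averaged 54.0 and 90.1 CPM in SA:ANH-KDM5Ci, 48.4 and 76.5 CPM in SA:ANH-vehicle, and 59.5 and 91.4 CPM in NS, and neither passed in any comparison.

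Dnajb5 had 131, 125 and 132 CPM in SA:ANH-KDM5Ci, 119, 118 and 136 CPM in SA:ANH-vehicle, and 135, 103 and 110 CPM in NS, so NS replicate 1 stood with the stressed libraries. Dnajc21, a ribosome biogenesis factor, had 39.0, 31.1 and 42.3 CPM in SA:ANH-KDM5Ci, 41.9, 35.9 and 41.2 CPM in SA:ANH-vehicle, and 31.6, 30.9 and 33.3 CPM in NS. Its log2 fold change in SA:ANH-vehicle over NS was 0.31 without overlap (adjusted p = 0.399). Both genes were picked after their values were seen.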
